A study of Mus musculus with 9 samples.

Results

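The 10 genes described here are cell cycle inhibitors, members of the p53 pathway and markers of cell senescence. They were chosen by name from the 55401 genes of the count table: Cdkn1a, Cdkn1b, Cdkn2a, Cdkn2b, Cdkn2c, Trp53, Mdm2, Ccng1, Rb1 and Lmnb1. Each name matched 1 row, and all 10 passed the filter on low counts that left 16762 genes to test. The choice is by gene name, made with earlier results of these data known.

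RNA-seq was performed on 9 libraries of neonatal mouse ventricular myocytes (NMVMs), which are primary heart muscle cells, taken here from wild-type C57BL/6J pups at 1 day of age. The 3 control libraries came from cells kept at normal oxygen in complete DMEM with 10% FBS. The 3 hypoxia libraries came from cells kept in DMEM free of glucose and of serum, inside an AnaeroPack chamber that removes oxygen, for 6 h. The 3 hypoxia + rSRGN libraries had the same treatment with recombinant serglycin, a secreted proteoglycan core protein, added to the medium. Because both hypoxic groups also had another medium, the part of oxygen and that of the medium cannot be told apart wherever control is the reference. The labels do not say that the libraries of a group came from separate cultures or litters, so the p-values measure the spread between these libraries, which may be technical.

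Senescence is a lasting stop of cell division that stress can induce. The stop is built on the retinoblastoma protein, encoded by Rb1, which holds E2F transcription factors inactive until cyclin-dependent kinases (CDKs) phosphorylate it. CDK inhibitors keep it active. The Ink4 proteins p16, p15 and p18 (Cdkn2a, Cdkn2b, Cdkn2c) block CDK4 and CDK6, and the Cip/Kip proteins p21 and p27 (Cdkn1a, Cdkn1b) bind a wider range of cyclin-CDK complexes. p53 (Trp53) activates Cdkn1a, and also Mdm2, whose product marks p53 for degradation. In the heart, most myocytes leave the cell cycle soon after birth, which by itself is not senescence. Senescence has been described there after injury and with age.

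Total counts were 21669017 to 22781557 in control, 16583985 to 18148474 in hypoxia and 16640239 to 20826701 in hypoxia + rSRGN. Levels are given as CPM, a gene's counts relative to the size of its library, with sizes scaled by TMM. The labelled cell type was checked against 12 cardiomyocyte markers, none of which was at 0 in any group. Their summed level was 46100 to 55900 CPM in control, 3890 to 5980 CPM in hypoxia and 7650 to 8210 CPM in hypoxia + rSRGN, and all 12 fell in hypoxia against control. The 9 fibroblast markers summed to 8820 to 10400 CPM in control, 17600 to 20400 CPM in hypoxia and 19400 to 20000 CPM in hypoxia + rSRGN, and 7 of them rose in hypoxia. Of the macrophage markers 8 of 8 fell, and of the endothelial markers 6 of 7, while 2 of 6 smooth muscle and pericyte markers rose and 1 fell. Of 11 genes known to respond to low oxygen, 3 rose and 6 fell in hypoxia. Of all genes, 26.4% rose and 25.1% fell. The macrophage markers Adgre1, C1qa, C1qb, C1qc and Mrc1, the endothelial marker Vwf and the oxygen-responsive Ankrd37 passed the filter through control alone. Their fall was thus in part fixed by the filter. In hypoxia + rSRGN against hypoxia, 10 of the 12 cardiomyocyte markers rose, against 2.27% of all genes, with a median log2 fold change of 0.78, and 7 were called without replicate 3 of hypoxia. The other cell type markers called there were Tcf21 of fibroblasts (-0.76), Kdr of endothelial cells (0.93) and Rgs5 of pericytes (0.78), and 0 of 8 macrophage markers were. The call of Rgs5 was lost without replicate 3 of hypoxia or replicate 2 of hypoxia + rSRGN. The part of these shifts in the differences below was not tested. In bulk libraries, fewer cells of a type and less RNA per cell cannot be told apart.

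p53 and E2F bind DNA at short sequence motifs, and the promoters of 5 transcript starts are shown here, those of the p53-activated genes Cdkn1a and Ccng1 and of the Cdkn2a-Cdkn2b locus. RefSeq windows (GRCm38.p6) reach from 250 bases before a start to 50 bases after it, and 8 of the 10 genes matched the table. Capitals mark matches to the p53 half-site consensus of 10 bases, to a full site of 2 such half-sites side by side with at most 1 mismatch in 20 bases, or to the E2F elements TTTCCCGC and TTTGGCGC. Both strands were searched, and the half-site reads the same on either strand. Where a full site is shown, it overlaps 1 of the half-sites.
Cdkn1a, upstream start, chr17:29090729-29091028, plus strand: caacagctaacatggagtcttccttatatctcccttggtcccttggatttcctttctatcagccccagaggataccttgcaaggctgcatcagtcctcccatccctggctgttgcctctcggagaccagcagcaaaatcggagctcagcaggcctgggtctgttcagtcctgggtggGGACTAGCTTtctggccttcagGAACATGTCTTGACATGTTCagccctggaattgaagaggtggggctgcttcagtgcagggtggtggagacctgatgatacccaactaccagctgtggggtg
Ccng1, chr11:40755237-40755536, minus strand: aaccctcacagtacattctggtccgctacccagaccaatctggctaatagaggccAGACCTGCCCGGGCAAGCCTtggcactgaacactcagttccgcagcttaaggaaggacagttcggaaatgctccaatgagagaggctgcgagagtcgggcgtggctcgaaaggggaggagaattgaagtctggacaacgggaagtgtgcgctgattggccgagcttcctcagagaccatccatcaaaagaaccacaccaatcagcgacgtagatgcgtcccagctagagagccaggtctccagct
Cdkn2a, upstream start (Arf), chr4:89294570-89294869, minus strand: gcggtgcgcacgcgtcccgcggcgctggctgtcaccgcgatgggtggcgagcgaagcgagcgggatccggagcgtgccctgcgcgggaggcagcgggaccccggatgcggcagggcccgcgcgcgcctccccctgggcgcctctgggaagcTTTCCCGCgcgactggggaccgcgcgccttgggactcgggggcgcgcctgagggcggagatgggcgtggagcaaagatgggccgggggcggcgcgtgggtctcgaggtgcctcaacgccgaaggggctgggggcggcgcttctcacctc
Cdkn2a, downstream start (Ink4a), chr4:89282143-89282442, minus strand: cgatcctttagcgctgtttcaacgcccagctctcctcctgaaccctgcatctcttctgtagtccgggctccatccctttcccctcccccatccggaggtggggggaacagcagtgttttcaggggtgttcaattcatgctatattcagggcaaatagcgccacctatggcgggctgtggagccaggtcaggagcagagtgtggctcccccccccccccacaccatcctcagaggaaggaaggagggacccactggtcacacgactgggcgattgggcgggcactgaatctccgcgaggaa
Cdkn2b, chr4:89310983-89311282, minus strand: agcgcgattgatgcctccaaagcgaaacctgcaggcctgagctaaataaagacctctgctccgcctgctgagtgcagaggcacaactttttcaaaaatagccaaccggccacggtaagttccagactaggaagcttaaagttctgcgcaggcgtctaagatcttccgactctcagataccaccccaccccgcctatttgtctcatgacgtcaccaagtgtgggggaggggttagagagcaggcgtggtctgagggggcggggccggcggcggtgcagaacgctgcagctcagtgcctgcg

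The full p53 site of Cdkn1a, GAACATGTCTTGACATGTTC, begins 51 bases before the annotated start. That of Ccng1, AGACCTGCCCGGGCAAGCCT, begins 195 bases before the start. Of the 32841 RefSeq windows searched, 29 (0.0883%) held such a full site and 2745 (8.36%) held at least 1 half-site. Single half-sites were also found 186 bases before the start of Mdm2 (GAACTTGCCT) and 75 bases before that of Trp53 (GGACTTGCCC). The p53-responsive promoter of Mdm2 is known to lie in its first intron, outside the window. The 28 windows of 22 other genes listed as p53 targets held no full site, and 8 of them (28.6%) held a half-site. Windows of Cdkn1b, Cdkn2b, Cdkn2c, the downstream start of Cdkn1a and the Ink4a start held none of these motifs. The only E2F element among the windows of the 10 genes lay 99 bases before the Arf start of Cdkn2a, against 514 (1.57%) of all windows. A match describes letters only and does not show binding.

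**Figure D1:**
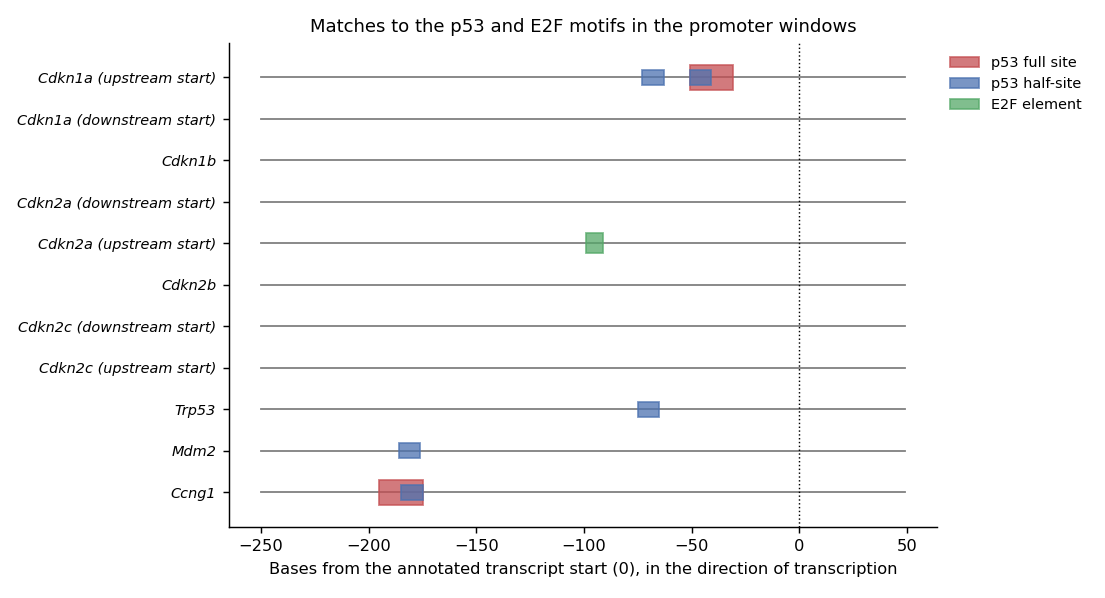
Matches to the p53 and E2F motifs in the 11 promoter windows of the 8 genes with a RefSeq entry. The horizontal axis gives the distance in bases from the annotated transcript start, and each line is 1 window. Full p53 sites, in red, appear in Cdkn1a (upstream start) and Ccng1, single half-sites, in blue, also in Trp53 and Mdm2, and the E2F element, in green, in Cdkn2a (upstream start).

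The first comparison, hypoxia against control, asks how these genes differ between stressed and unstressed cultures, whose marker levels differ as given above. Calls required an adjusted p below 0.05 in edgeR's quasi-likelihood test and a change of 1.5-fold or more. Of the 10 genes, 5 were called: Cdkn1a, Cdkn2a, Cdkn2b and Trp53 rose, and Rb1 fell. Over all 16762 genes, 51.6% were called in this comparison, 26.4% higher and 25.1% lower, so the share of 5 in 10 is close to the background. The median log2 fold change of the 10 genes was 0.41, against 0.05 for all genes tested.

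The second comparison, hypoxia + rSRGN against hypoxia, asks what the added protein changes. Of the 10 genes, 0 were called by edgeR, against 3.13% of all genes, 2.27% higher and 0.859% lower, and 0 by DESeq2, against 3.22%. The count over all genes was 525, and 321 without replicate 3 of hypoxia. At an unadjusted p below 0.05 and with no fold limit, 5 of the 10 genes passed in edgeR, against 29.4% of all genes, and 3 in DESeq2, against 27.7%. Mdm2 and Ccng1 had an adjusted p below 0.05 with a change under 1.5-fold. With no fold limit, an adjusted p below 0.05 was reached by 9 of the 10 genes in hypoxia against control (70.9% of all genes), by 2 here (16.6% of all genes) and by 6 in hypoxia + rSRGN against control (68.6% of all genes). In hypoxia + rSRGN against hypoxia, the 95% confidence intervals of all 10 genes lay within 1.5-fold in either direction. The share of all genes with such an interval was not counted, so this is no trait of the 10 genes. In hypoxia + rSRGN against control, 6 genes were called, Mdm2 joining the 5 above, against 48.8% of all genes, 24.1% higher and 24.7% lower. The comparisons share the control or the hypoxia libraries and are not independent of each other. Where groups are said below not to overlap, the share of all genes that do not was not counted. Separation alone is therefore not read as a change.

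**Figure D2:**
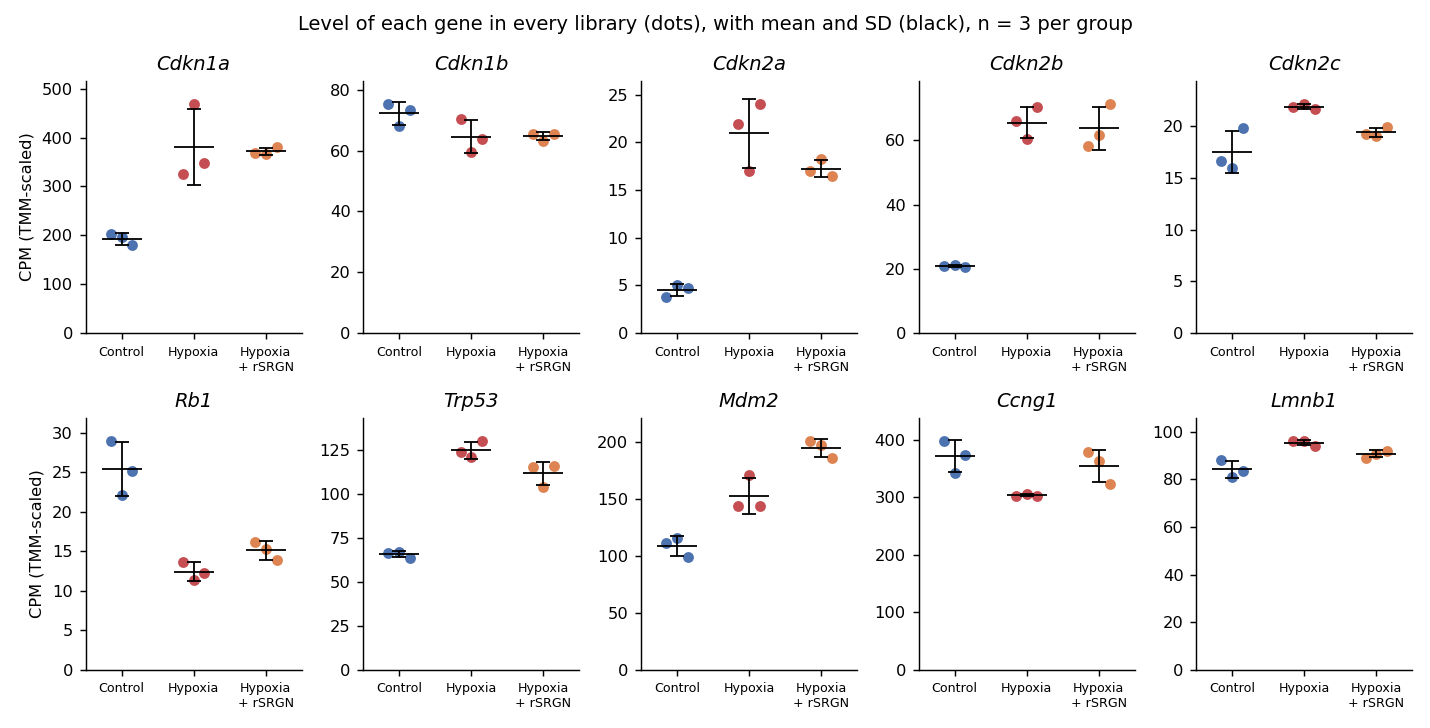
Level of each of the 10 genes in every library, in CPM on TMM-scaled library sizes (vertical axes start at 0). Coloured dots are the 9 libraries, and black bars give the mean and SD of each group of 3. The control dots of Cdkn1a, Cdkn2a, Cdkn2b, Trp53, Mdm2 and, by a small margin, Lmnb1 sit below all 6 hypoxic dots, and those of Rb1 above them. The share of all genes with such a separation was not counted.

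Trp53 encodes p53, the transcription factor at the head of this pathway, and lies on the plus strand of chromosome 11 (GRCm38, chr11:69580359-69591873). It stood at 66.5, 66.8 and 63.7 CPM in the control libraries, at 123.9, 121 and 130.5 CPM in hypoxia and at 115.7, 104.2 and 115.8 CPM in hypoxia + rSRGN. Both hypoxic groups lay wholly above control, and every rSRGN library lay below every hypoxia library. The rise in hypoxia was 1.91-fold (log2 fold change 0.93 ± 0.07 SE, adjusted p = 1.3e-10). With rSRGN the level was a log2 0.16 ± 0.07 below hypoxia, which did not pass (adjusted p = 0.13).

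Mdm2, the ubiquitin ligase that limits p53, lies on the minus strand of chromosome 10 (chr10:117688875-117710758). Its levels were 111.4, 115.2 and 99.1 CPM in control, 143.9, 170.7 and 143.6 CPM in hypoxia and 201.1, 197 and 185.6 CPM in hypoxia + rSRGN. The 3 groups did not overlap, with control lowest and hypoxia + rSRGN highest. Hypoxia was 1.41-fold above control, short of the 1.5-fold limit (log2 0.49 ± 0.08, adjusted p = 1.28e-05). Hypoxia + rSRGN was 1.27-fold above hypoxia, again under the limit (log2 0.35 ± 0.08, adjusted p = 0.00492), with an interval of 0.18 to 0.52. Against control it rose 1.79-fold (log2 0.84 ± 0.08, adjusted p = 5.05e-09).

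Cdkn1a encodes p21, the CDK inhibitor best known as a p53 target, and lies on chromosome 17 (chr17:29090976-29100727, plus strand). The control libraries had 202.7, 196.3 and 179.3 CPM, the hypoxia libraries 325.6, 468.8 and 348.3 CPM, and the hypoxia + rSRGN libraries 367.5, 367.2 and 380.1 CPM. Every hypoxic library exceeded every control library, and replicate 2 of hypoxia stood above all others. The rise in hypoxia was 1.98-fold (log2 0.98 ± 0.10, adjusted p = 1.04e-08), and that of hypoxia + rSRGN over control was 1.93-fold (log2 0.95 ± 0.10, adjusted p = 2.04e-08). Between the hypoxic groups the log2 difference was -0.04 ± 0.10, with an interval of -0.24 to 0.17 (adjusted p = 0.856), and it was 0.14 without replicate 2 of hypoxia. Over its exons, 273 bases (7.68%) are shared with the opposite-strand gene 1700023B13Rik, which had 13 to 42 counts a library.

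Ccng1 encodes cyclin G1, another p53 target that acts in a feedback loop with Mdm2, and lies on the minus strand of chromosome 11 (chr11:40748552-40755311). Its levels were 398.1, 342.5 and 373.8 CPM in control, 302.1, 305.2 and 302.3 CPM in hypoxia and 377.7, 362.5 and 323 CPM in hypoxia + rSRGN. The hypoxia libraries lay below all others, while control and hypoxia + rSRGN overlapped. The hypoxia level was a log2 0.29 ± 0.08 below control (adjusted p = 0.00157) and that of hypoxia + rSRGN a log2 0.23 ± 0.08 above hypoxia (adjusted p = 0.0445), both changes under 1.5-fold. Cdkn1a and Ccng1, whose promoters above hold the full p53 sites, thus had log2 fold changes of opposite sign in hypoxia against control, 0.98 and -0.29. The difference between the 2 genes was not tested.

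**Figure D3:**
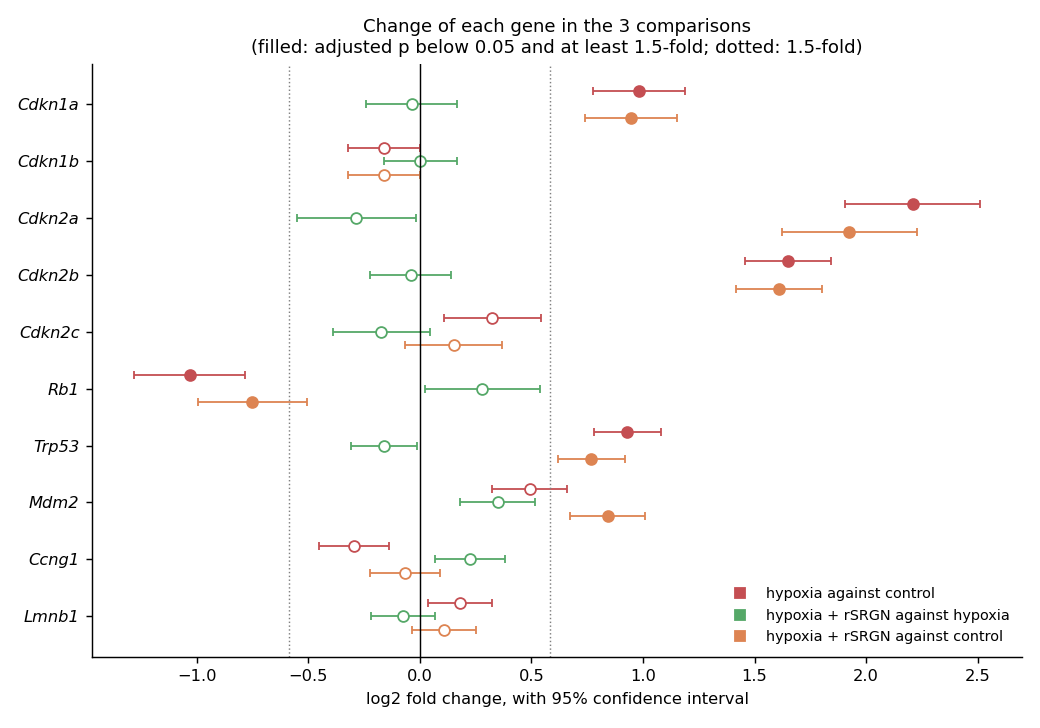
Log2 fold change of each gene in hypoxia against control (red), hypoxia + rSRGN against hypoxia (green) and hypoxia + rSRGN against control (orange), with 95% confidence intervals. Filled circles passed the test and the 1.5-fold limit, which is drawn as dotted lines. The green circles are all open and lie between the dotted lines.

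Cdkn1b, which encodes p27, a Cip/Kip inhibitor that is regulated to a large part through the stability of its protein, lies on chromosome 6 (chr6:134920401-134925513, plus strand). Its levels were 75.4, 68.1 and 73.5 CPM in control, 70.5, 59.6 and 63.7 CPM in hypoxia and 65.4, 63.3 and 65.4 CPM in hypoxia + rSRGN. Control and hypoxia overlapped, while the rSRGN libraries lay below control (log2 -0.16 ± 0.08, adjusted p = 0.0733). Hypoxia against control gave a log2 fold change of -0.16 ± 0.08 (adjusted p = 0.0692), with an interval of -0.32 to 0.0004. The 2 hypoxic groups had means of 64.6 and 64.7 CPM, and the interval of their log2 difference was -0.16 to 0.16.

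Cdkn2a and Cdkn2b, both Ink4 inhibitors, had the highest fold changes of the 10 genes in hypoxia against control. They lie next to each other on the minus strand of chromosome 4, at chr4:89274471-89294653 and chr4:89306299-89311039, with 11645 bases between them. Cdkn2a makes p16Ink4a, an inhibitor of CDK4 and CDK6, and p19Arf, an inhibitor of Mdm2, from different first exons, and counts per gene cannot tell them apart. Its levels were 3.82, 5.06 and 4.74 CPM in control, 21.9, 17 and 24 CPM in hypoxia and 17, 18.2 and 16.5 CPM in hypoxia + rSRGN. These values rest on 85 to 112 counts in a control library and 285 to 415 in a hypoxic one. Both hypoxic groups lay wholly above control and overlapped each other.

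Cdkn2a rose 4.62-fold in hypoxia (log2 2.21 ± 0.15, adjusted p = 7.31e-12) and 3.80-fold in hypoxia + rSRGN against control (log2 1.92 ± 0.15, adjusted p = 9.99e-11). With rSRGN the level was a log2 0.28 ± 0.13 below hypoxia (adjusted p = 0.144), with an interval of -0.55 to -0.02. Cdkn2b, which encodes p15, stood at 20.8, 21.3 and 20.6 CPM in control, 66, 60.4 and 70.3 CPM in hypoxia and 58.3, 61.6 and 71.4 CPM in hypoxia + rSRGN. Its 3 control libraries lay close together and far below the other 6. It rose 3.14-fold in hypoxia (log2 1.65 ± 0.09, adjusted p = 4.5e-13) and 3.05-fold in hypoxia + rSRGN against control (log2 1.61 ± 0.09, adjusted p = 8.51e-13). The hypoxic groups overlapped, and their log2 difference had an interval of -0.22 to 0.14.

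The nearest other protein-coding gene within 200000 bases was Mtap, which encodes a methionine salvage enzyme and ends 93390 bases from Cdkn2a. It was looked up after its values were seen, and it also rose in hypoxia, from 100.3 ± 4.67 to 181.2 ± 9.58 CPM (mean ± SD, log2 0.85 ± 0.07 SE, adjusted p = 3.63e-10).

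Cdkn2c, which encodes p18, lies elsewhere on chromosome 4 (chr4:109660876-109667189, minus strand). Its levels were 16.6, 16 and 19.8 CPM in control, 21.8, 22.1 and 21.7 CPM in hypoxia and 19.2, 19.1 and 19.9 CPM in hypoxia + rSRGN. The hypoxia libraries lay above all others, and hypoxia + rSRGN overlapped control. The change in hypoxia was 1.25-fold (log2 0.32 ± 0.10, adjusted p = 0.00851), under the limit, and hypoxia + rSRGN against hypoxia gave -0.17 ± 0.10 (adjusted p = 0.285).

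Rb1, the E2F-binding protein on which these inhibitors converge, spans 142150 bases of chromosome 14 (chr14:73183673-73325822, minus strand). Its levels were 29, 22.1 and 25.1 CPM in control, 13.6, 11.3 and 12.3 CPM in hypoxia and 16.2, 15.3 and 13.8 CPM in hypoxia + rSRGN. Control lay wholly above both hypoxic groups, and every rSRGN library lay above every hypoxia library. Rb1 was 2.04-fold lower in hypoxia (log2 -1.03 ± 0.12, adjusted p = 9.36e-08) and 1.68-fold lower in hypoxia + rSRGN, both against control (log2 -0.75 ± 0.12, adjusted p = 7.15e-06). The log2 difference of the hypoxic groups, 0.28 ± 0.12 with an interval of 0.02 to 0.54, did not pass (adjusted p = 0.133). Of its exonic bases, 488 (8.11%) are shared with Rcbtb2 and 408 (6.78%) with Lpar6, both on the opposite strand, and the counting named no strand. Rcbtb2 had 615 to 1018 counts a library and Lpar6 52 to 204, against 196 to 645 for Rb1. The part of this overlap in the values of Rb1 was not tested.

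Lmnb1 encodes lamin B1, a protein of the nuclear lamina whose loss is a known marker of senescent cells, and lies on chromosome 18. It stood at 88.2, 80.9 and 83.4 CPM in control, 96, 96.3 and 94.1 CPM in hypoxia and 89.1, 90.8 and 92.1 CPM in hypoxia + rSRGN. The 3 groups did not overlap, with control lowest. Hypoxia was 1.13-fold above control (log2 0.18 ± 0.07, adjusted p = 0.0232), under the limit, and the direction was opposite to a loss. The log2 difference between the hypoxic groups was -0.07 ± 0.07 (adjusted p = 0.52).

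Levels of different genes can be set side by side only per length, here as CPM per kb of exon. In control, Ccng1 had the highest level at 105.8 ± 7.94 CPM per kb (SD), then Cdkn1a at 54.3 ± 3.40, Lmnb1 at 28.4 ± 1.24 and Mdm2 at 21.4 ± 1.66. Trp53 (16.2 ± 0.43), Cdkn1b (15.9 ± 0.83) and Cdkn2b (15 ± 0.26) CPM per kb followed, and neighbours among these 3 did not differ by more than the sum of their SDs. The lowest were Cdkn2c at 6.51 ± 0.76, Rb1 at 4.22 ± 0.58 and Cdkn2a at 3.87 ± 0.55 CPM per kb, the last pair likewise within theirs.

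In hypoxia the order changed. Cdkn1a came to 107.2 ± 21.7 CPM per kb and Ccng1 to 86.3 ± 0.49, a gap within the spread of Cdkn1a. Cdkn2b moved from seventh to the third place at 47.2 ± 3.56 CPM per kb, and Cdkn2a from last to seventh at 17.9 ± 3.09, close to Cdkn1b at 14.2 ± 1.20, while Rb1 was last at 2.06 ± 0.19. Lmnb1 (32.2 ± 0.41), Trp53 (30.9 ± 1.21) and Mdm2 (30.1 ± 3.07) CPM per kb lay within their spread of each other. In hypoxia + rSRGN the order was that of hypoxia except that Mdm2, at 38.3 ± 1.58 CPM per kb, came before Lmnb1 and Trp53.

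**Figure D4:**
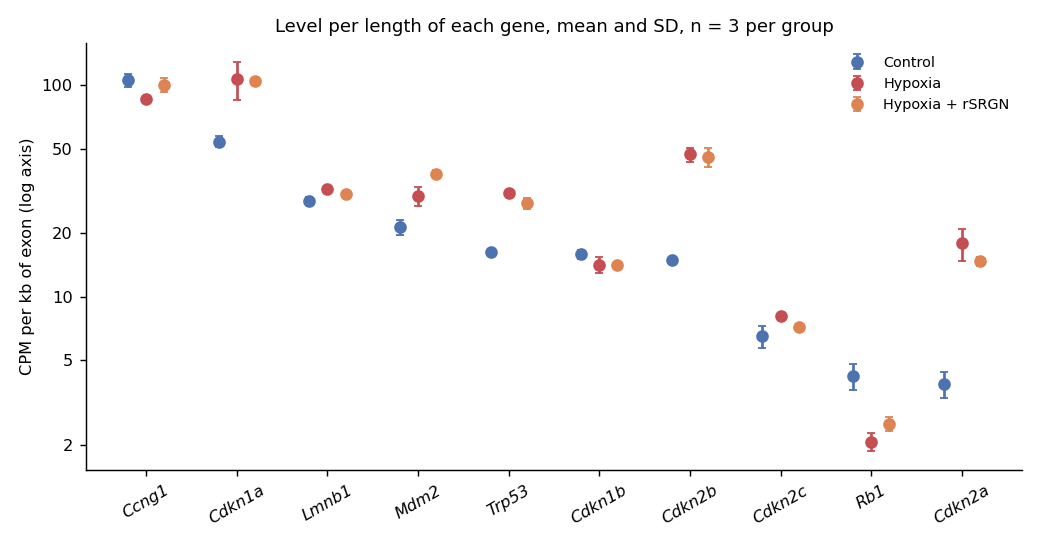
Level of the 10 genes per kb of exon (log axis), ordered by the control mean. Points are means and bars are SDs of 3 libraries for control (blue), hypoxia (red) and hypoxia + rSRGN (orange). Cdkn2a and Cdkn2b stand well above their control points in both hypoxic groups, and Rb1 below.

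The pathways around these genes were described by lists, whose counts are to be read against the 51.6% of all genes called in hypoxia against control (26.4% higher, 25.1% lower), the 3.13% in hypoxia + rSRGN against hypoxia and the 48.8% in hypoxia + rSRGN against control. Of 17 tested regulators of p53, 6 rose and 3 fell in hypoxia, 52.9% in all and near that background. Their median log2 fold change was 0.04, and that of all genes was 0.05. Those that rose most were Chek1, a checkpoint kinase (log2 1.76 ± 0.12, adjusted p = 1.84e-11), and Rpl11 and Rpl5, ribosomal proteins that can bind Mdm2 (1.35 ± 0.07 and 1.23 ± 0.07). Those that fell most were the p53 kinase Hipk2 (-1.27 ± 0.13), the DNA damage kinase Atr (-0.96 ± 0.14) and Trp53bp1 (-0.83 ± 0.10), a DNA repair protein. With rSRGN against hypoxia, 0 of the 17 were called, against 3.13% of all genes.

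Of 30 further p53 target genes, 13 rose and 5 fell in hypoxia, 60% called against 51.6% of all genes, and the median log2 fold change was 0.40. Bax, a pore-forming protein of apoptosis, stood at 44.5, 41.5 and 39.5 CPM in control and at 123.9, 131.6 and 141.2 CPM in hypoxia, a rise of log2 1.66 ± 0.08 (adjusted p = 1.94e-14). Plk3, a stress-responsive polo-like kinase, rose by log2 2.29 ± 0.15 and Gadd45a, a growth arrest gene, by 1.84 ± 0.12. Perp, a membrane protein with roles in cell adhesion and apoptosis, stood at 291.5, 281.4 and 292 CPM in control, at 23.2, 28.8 and 17.1 CPM in hypoxia and at 43.1, 42.2 and 41.5 CPM in hypoxia + rSRGN. No 2 of these groups overlapped. Perp fell in hypoxia (log2 -3.65 ± 0.12, adjusted p = 3.97e-17), as did the stress regulator Sesn1 (-1.78 ± 0.11) and Tigar (-1.72 ± 0.12), which lowers glycolytic flux.

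Of the 30 targets, 1 rose and 1 fell in hypoxia + rSRGN against hypoxia, 6.67% called against 3.13% of all genes. The former was Perp (log2 0.88 ± 0.12, adjusted p = 6.01e-05). Cardiomyocyte markers moved by a like amount in the same comparison, 10 of 12 called higher with Nppa (1.03 ± 0.18), Pln (0.90 ± 0.11) and Myl3 (0.89 ± 0.11) highest, and their part in the change of Perp was not tested. The latter was Fdxr, a mitochondrial reductase, at 14.4, 12 and 14.7 CPM in hypoxia and 8.7, 7.81 and 9.51 CPM with rSRGN (log2 -0.66 ± 0.14, adjusted p = 0.00273). Against control, hypoxia + rSRGN had 11 targets higher and 5 lower, 53.3% called and near the 48.8% of all genes. Highest were Plk3 (log2 2.54 ± 0.15), Pmaip1 (1.92 ± 0.16), which encodes the apoptosis factor Noxa, and Gadd45a (1.81 ± 0.12).

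**Figure D5:**
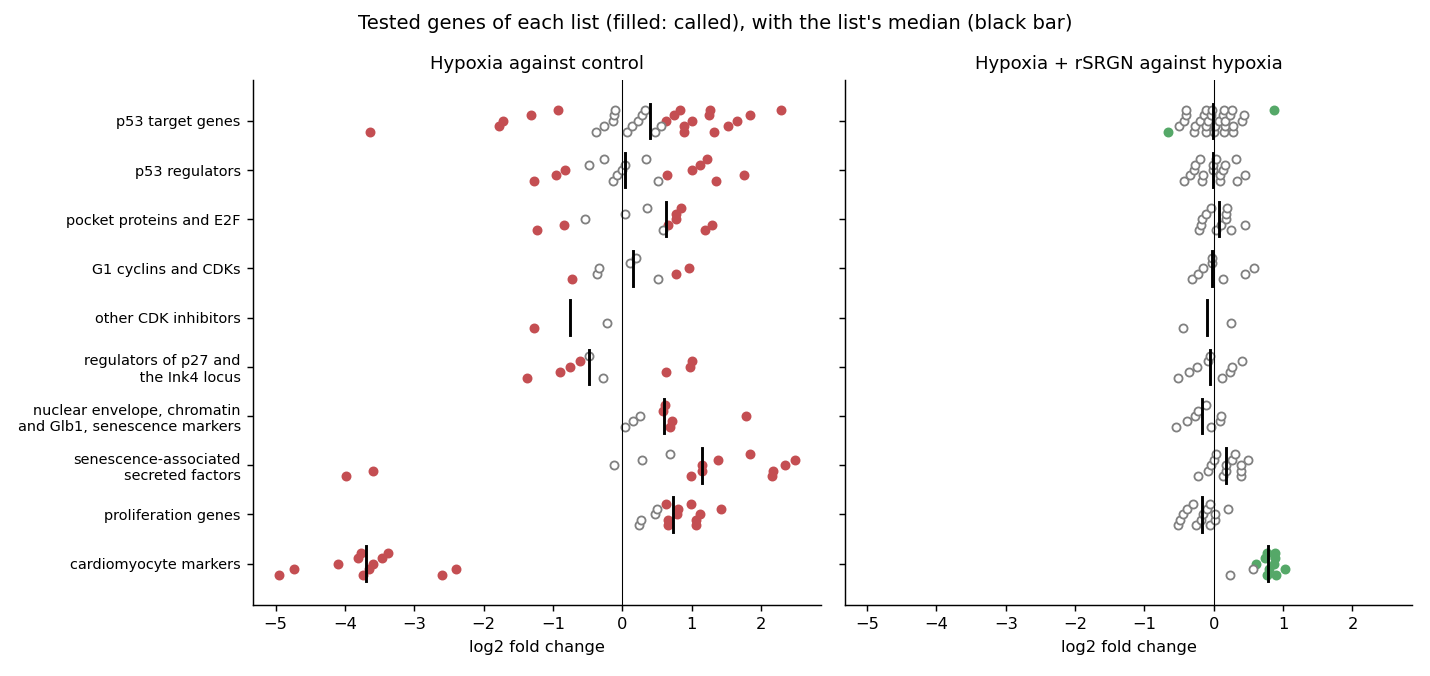
Log2 fold change of every tested gene of 10 lists in hypoxia against control (left) and hypoxia + rSRGN against hypoxia (right), on the same axis. Filled circles were called, open circles were not, and black bars give the median of each list. On the right, the filled circles are Perp and Fdxr among the p53 target genes and 10 of the 12 cardiomyocyte markers.

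Of the other CDK inhibitors, Cdkn1c, which encodes p57, fell in hypoxia (log2 -1.27 ± 0.15, adjusted p = 7.26e-08), and Cdkn2d, which encodes p19Ink4d, was called lower in hypoxia + rSRGN against control alone (-0.67 ± 0.14, adjusted p = 0.000167). That call was lost without replicate 2 of hypoxia + rSRGN, where the log2 fold change was -0.50. Among 8 G1 cyclins and CDKs, the targets of the inhibitors, 2 rose and 1 fell in hypoxia. Ccnd1, cyclin D1, stood at 269.2, 268.5 and 252 CPM in control and at 471.5, 441.1 and 440.8 CPM in hypoxia (log2 0.78 ± 0.07, adjusted p = 1.52e-09). Its partner Cdk4 rose by 0.96 ± 0.07, and Cdk6 fell by 0.72 ± 0.09 on the log2 scale.

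Of 12 pocket proteins and E2F factors, 6 rose and 2 fell in hypoxia, with a median log2 fold change of 0.62. E2f2 (log2 1.30 ± 0.25), E2f1 (1.20 ± 0.11) and E2f5 (0.84 ± 0.15) rose most. Rbl2, which encodes the Rb relative p130, fell like Rb1, from 39.4, 39.2 and 44.8 CPM in control to 20, 17 and 15.5 CPM in hypoxia (log2 -1.23 ± 0.11, adjusted p = 2.54e-09), and so did the repressor E2f6 (-0.84 ± 0.09). Of 14 proliferation genes, 10 rose and 0 fell, with a median log2 fold change of 0.73, Aurkb (1.42 ± 0.11), Cdk1 (1.11 ± 0.09) and Birc5 (1.06 ± 0.10) rising most. These 3 genes encode proteins that act in mitosis. Their list summed to 627 to 693 CPM in control, 1040 to 1100 CPM in hypoxia and 937 to 1000 CPM in hypoxia + rSRGN.

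Of 9 regulators of p27 and of the Ink4 locus, 3 rose and 4 fell in hypoxia. Skp2 and Cks1b, which direct the breakdown of p27, rose (log2 0.97 ± 0.12 and 1.00 ± 0.10), as did the Polycomb enzyme Ezh2, a repressor of the Ink4 locus (0.64 ± 0.10). The Polycomb proteins Cbx7 (-1.38 ± 0.29) and Cbx2 (-0.75 ± 0.18) and the transcription factor Foxo3 (-0.90 ± 0.09) fell. The calls of Ezh2 and Cbx2 were lost, with log2 fold changes of 0.53 and -0.57, without replicate 2 of hypoxia, and that of Ezh2 also without replicate 2 (0.57) or 3 (0.58) of control.

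A list of 8 senescence markers other than Lmnb1 held 7 genes of the nuclear envelope or chromatin and Glb1, the gene of the lysosomal beta-galactosidase, and 5 of the 8 rose and 0 fell in hypoxia. Glb1 was 1 of the 5 (log2 0.62 ± 0.08, adjusted p = 4.86e-07), so that 4 of the 7 nuclear genes rose. Hmgb2, a chromatin protein known to be lost in senescence, stood at 44.7, 39.6 and 44.4 CPM in control, 145.3, 163.9 and 134.7 CPM in hypoxia and 103, 95.9 and 105 CPM with rSRGN, and rose by log2 1.79 ± 0.08 in hypoxia (adjusted p = 1.99e-14). Lmna, the gene of lamins A and C, rose by 0.71 ± 0.08 and Banf1, a chromatin-binding protein, by 0.68 ± 0.08. The call of Banf1 was lost without replicate 2 of hypoxia (log2 0.57). The count of 5, Glb1 included, was 3 without replicate 1 of control. Without replicate 2 of hypoxia it was 2, Hmgb2 and Lmna, so that the call of Glb1 was lost there too.

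Of 14 tested factors that senescent cells are known to secrete, 9 rose and 2 fell in hypoxia, and the median of their log2 fold changes was 1.15. The stress cytokine Gdf15 stood at 11.1, 12.9 and 8.26 CPM in control, 50.2, 65.9 and 49 CPM in hypoxia and 60, 62.5 and 64.8 CPM with rSRGN, a rise of log2 2.35 ± 0.13 in hypoxia (adjusted p = 4.83e-13). Il6, which encodes interleukin 6, rose by 2.49 ± 0.23 from 0.821 to 1.58 CPM in control to 6.72 to 7.45 CPM in hypoxia, and the chemokine Cxcl1 by 2.17 ± 0.25. Mmp12, a macrophage protease, fell by 3.99 ± 0.27 on the log2 scale, and Igfbp5 fell by 3.60 ± 0.11. Macrophage markers fell as well, among them Csf1r, Cd68 and Lyz2, whose counts did not pass the filter through control alone. Il1a and Il1b did not pass the filter. With rSRGN against hypoxia, 0 of the 14 factors were called, against 3.13% of all genes.

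Of the 9749 genes with a mean of at least 10 CPM that were compared with Cdkn1a, those nearest to it by their log2 fold changes in hypoxia against control and in hypoxia + rSRGN against hypoxia were Layn (0.97 and -0.04), Msmo1 (0.99 and -0.05) and Aldh18a1 (0.97 and -0.04). Likeness was the distance between these 2 values, 0.0117, 0.0159 and 0.016 in turn, over 9 libraries.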

How the data were processed

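RNA-seq counts of 9 libraries were grouped and numbered by their labels. The authors deposited whole-number counts of fragments per gene, without normalization. Per the file header, fragments of read pairs were counted on GENCODE release 25 exons by featureCounts 2.0.1, with no strand option, and the submitters' processing notes name HISAT2 (version not given in the sources used here) and mm10. All 9 count columns were used. For the tests, edgeR 4.0.16 (R 4.3.3) was used: filterByExpr, TMM scaling, 1 mean per group over all 9 libraries and the quasi-likelihood test, with p-values adjusted by Benjamini-Hochberg over all 16762 genes. The step was tested on simulated data. The SE is the log2 fold change divided by the square root of F, and intervals are 95% confidence intervals from it. Genes named are the 10 members, up to 3 called genes per list and direction with a mean of at least 1 CPM, and the 3 genes nearest Cdkn1a. Members and lists were chosen with earlier results of these data known. Libraries of a group differed by more than sampling noise (chi-square per degree of freedom 3.63 to 13.1), and none was counted as a duplicate. Figures used matplotlib 3.10.9.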

Additional observations from a re-analysis of the deposited data

How the results depend on the processing

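The settings changed were the tool (DESeq2 1.42.0), the scaling (RLE, or none beyond library size), the filter (1 count in total, or 10 in each library), the libraries fitted (the compared groups, or all but 1), the p (unadjusted), the fold limit (none) and a block by replicate number. Calls among the 10 genes numbered 5 for hypoxia over control, 0 for rSRGN over hypoxia and 6 for rSRGN over control under each setting except without the fold limit, where they were 9, 2 and 6, against 70.9%, 16.6% and 68.6% of all genes. The same numbers in the labels did not pair the libraries: deviations from the group means correlated at -0.0374 to 0.0215 over 9 pairs, and the block left the counts at 5, 0 and 6 and gave 8550, 495 and 8096 calls over all genes. The settings other than the unadjusted p and no fold limit gave 480 values of the 10 genes. Of these, 473 kept their direction and their side of the threshold. The other 7 changed sign, all in hypoxia + rSRGN against hypoxia and none called. Cdkn1b gave -0.0213 with library size alone. With 1 library left out, the log2 fold changes were -0.136 to 0.143 for Cdkn1a, -0.0514 to 0.0697 for Cdkn1b and -0.119 to 0.0214 for Cdkn2b. Over all genes, hypoxia + rSRGN against hypoxia had 525 calls, 72.6% of them higher. It had 540 in DESeq2, 899 with the unadjusted p, 2790 without the fold limit and 321 to 699 with 1 library left out. The cause was not tested. Depth limits Cdkn2a most, at 85 to 112 counts in a control library.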

Other observations

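Around the Cdkn2a-Cdkn2b locus, 2 further non-coding genes were called in hypoxia against control, as were 51.6% of all genes. Both were looked at after their values were seen. Wincr1, a lincRNA gene on the plus strand 189857 bases from Cdkn2a, had 7, 1 and 6 counts in control, 28, 23 and 18 in hypoxia and 35, 34 and 36 in hypoxia + rSRGN. It passed the filter on low counts through the hypoxic groups alone. Its rise was thus in part fixed by the filter, and its p-values against control are not given. The log2 fold changes were 2.55 ± 0.51 SE for hypoxia and 3.08 ± 0.49 for hypoxia + rSRGN, both against control. The difference between the hypoxic groups did not pass (0.53 ± 0.40, adjusted p = 0.405 in edgeR's quasi-likelihood test). Gm12602, a processed transcript 146245 bases away, had 54, 57 and 53 counts in control and 83, 82 and 79 in hypoxia, a rise of log2 0.86 ± 0.20 (adjusted p = 0.000695).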
